A study of Mus musculus with 48 samples.

Results

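The genes of the activating and morning side of the circadian clock, Arntl, Npas2, Clock, Nfil3, Cry1, Cry2, Rora, Rorb and Bhlhe40, were followed in RNA-seq of the substantia nigra, the midbrain region that holds the dopaminergic neurons lost in Parkinson's disease. They were listed by symbol, with earlier results of these data known, and all 9 were found among the 19601 genes of the batch-corrected table and among the 14839 genes tested. The samples came from 48 male C57BL/6J mice that received an injection into the striatum of either alpha-synuclein preformed fibrils (PFFs), which seed aggregation of the endogenous protein, or monomeric alpha-synuclein as the control. Mice of both kinds breathed 21% or 11% O2, with 12 mice in each of the 4 groups. The study's methods describe 11% O2 from shortly after the injection onward, whereas the design text deposited with the data describes a period of normoxia first, so the length of the exposure could not be settled. The mice were at most 219 days old at harvest, which came 90 to 98 days after injection, and no transgene or deletion is given for any group. The model covers the response of males of 1 inbred strain to injected alpha-synuclein.

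After the 6 mice that the authors set aside, 42 remained, 11 with monomer and 12 with PFF at 21% O2, and 9 with monomer and 10 with PFF at 11% O2. They were harvested in 3 batches, named as such by the labels. Batch 1 held all 4 groups, batch 2 had no monomer mice at 11% O2, and batch 3 had no monomer mice at 21% O2. The hour of day at which each mouse or batch was collected is not given in the sources used here. The 42 libraries held 12902996 to 17120921 counts on genes. Th and Slc6a3, which define dopaminergic neurons, were present in every library, at 96.1 to 1079 and 263 to 1932 TPM, a level scaled to transcript length and library size. The 7 targets of hypoxia-inducible factor that the study names summed to 275 to 363 TPM in all mice labelled 21% O2 and to 477 to 569 TPM in all mice labelled 11% O2. The study named these genes as higher at 11% O2 in the same data, so their separation is no independent check of the labels.

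In the mammalian clock, BMAL1 (encoded by Arntl) pairs with CLOCK or with its close relative NPAS2 and binds E-box elements to switch on the Per and Cry genes, whose products then shut the pair down. A second loop runs through the ROR element, where the ROR proteins activate and the REV-ERB proteins (Nr1d1 and Nr1d2) repress, and which drives Arntl and Nfil3 in antiphase to the E-box genes. NFIL3 competes at D-box elements with DBP, TEF and HLF, and BHLHE40 competes with the activator pair at E-boxes. In most peripheral tissues and brain regions, Arntl and Npas2 transcripts are near their peak when Dbp, Nr1d1 and Ciart are near their trough, and the other way round.

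RefSeq promoters (GRCm38.p6, 250 bases before to 50 bases after a start site) were at hand for 8 of the 9 genes. They are shown for 3 genes, the 2 that were called lower with PFF at 21% O2 (Arntl and Nfil3) and Cry1, a gene of the E-box arm. Both strands were searched for the E-box CACGTG, its variant CACGTT, the ROR element form GTAGGTNA, the D-box TTATGTAA and the cyclic AMP response element TGACGTCA. These letters were chosen after the promoters had been seen. Capitals mark the matches, and no motif overlapped another. The second of the 2 Arntl start sites is used (chr7:113207261-113207511, plus strand, ending on the start site itself), Nfil3 is chr13:52981040-52981289 on the minus strand, and Cry1 is chr10:85185055-85185304 on the minus strand.

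Arntl: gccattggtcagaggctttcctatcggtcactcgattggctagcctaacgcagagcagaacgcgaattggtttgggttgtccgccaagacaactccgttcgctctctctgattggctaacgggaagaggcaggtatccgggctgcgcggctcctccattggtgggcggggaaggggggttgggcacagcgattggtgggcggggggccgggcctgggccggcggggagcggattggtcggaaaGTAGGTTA

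Nfil3: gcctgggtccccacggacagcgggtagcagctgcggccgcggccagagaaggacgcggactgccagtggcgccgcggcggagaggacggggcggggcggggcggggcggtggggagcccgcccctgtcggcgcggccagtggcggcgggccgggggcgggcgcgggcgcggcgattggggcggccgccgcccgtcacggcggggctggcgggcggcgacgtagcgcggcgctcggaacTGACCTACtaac

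Cry1: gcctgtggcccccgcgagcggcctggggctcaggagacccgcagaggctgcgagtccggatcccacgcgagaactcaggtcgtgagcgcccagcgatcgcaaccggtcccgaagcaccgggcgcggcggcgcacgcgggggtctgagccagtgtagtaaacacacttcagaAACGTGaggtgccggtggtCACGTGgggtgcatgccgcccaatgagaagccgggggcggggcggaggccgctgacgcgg

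A second copy of the ROR form lay behind the Arntl start site, at bases 30 to 37 of the transcript (chr7:113207527-113207556, plus strand).

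Arntl, after the start: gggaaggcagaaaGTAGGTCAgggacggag

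Arntl and Nfil3 were the only members among the 8 with a promoter that held GTAGGTNA, which occurred in 2.14% of all 32851 promoters. Because the letters were chosen after these promoters had been seen, this share is no test of enrichment. In Nfil3 the ROR form lay on the opposite strand, at bases -12 to -5. Cry1 held the E-box at bases -60 to -55 and the variant E-box at -79 to -74, and Cry2 held the variant at -166 to -161. CACGTG occurred in 7.15% and CACGTT in 4.68% of all promoters. One of the 2 Rorb promoters held CACGTT, and the promoters of Npas2, Clock and Rora held no match. TTATGTAA (0.938% of all promoters) and TGACGTCA (1.79%) were in none of the members' promoters. A match describes letters and is not evidence of binding.

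Levels per transcript length separated the members into tiers. Over the 42 mice, Cry2 (ENSMUSG00000068742, chr2:92403646-92434043), one of the 2 cryptochrome repressors, had the highest mean, at 68.2 ± 5.79 batch-corrected TPM (SD, n = 42 here and for the other 8 genes). Bhlhe40 (ENSMUSG00000030103, chr6:108660629-108666925) followed at 45.0 ± 5.23 TPM. Clock (ENSMUSG00000029238, chr5:76209868-76304792) at 25.6 ± 2.23, Rora (ENSMUSG00000032238, chr9:68653786-69388246) at 23.9 ± 2.32 and Cry1 (ENSMUSG00000020038, chr10:85131700-85185064) at 22.8 ± 2.20 TPM lay within their spread of each other. Nfil3 (ENSMUSG00000056749, chr13:52967209-52981073) at 11.6 ± 2.14 TPM and Arntl (ENSMUSG00000055116, chr7:113207465-113314126) at 11.5 ± 1.497 TPM also differed by less than their SD. The SD describes single mice, and the order of the means was not tested. Rorb (ENSMUSG00000036192, chr19:18930605-19111196), at 7.21 ± 0.922 TPM, and Npas2 (ENSMUSG00000026077, chr1:39193731-39363236), at 5.93 ± 0.878 TPM, were the lowest. Coordinates are on GRCm38 and were looked up by gene identifier in GENCODE vM21. Reads were counted without strand, and exons of Arntl, Cry2, Rora and Bhlhe40 overlap 33, 295, 82 and 118 bases of a gene on the other strand, so reads in those stretches cannot be told apart. Because whole tissue was sequenced, fewer cells of a type and less RNA per cell cannot be told apart in any comparison.

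**Figure D1:**
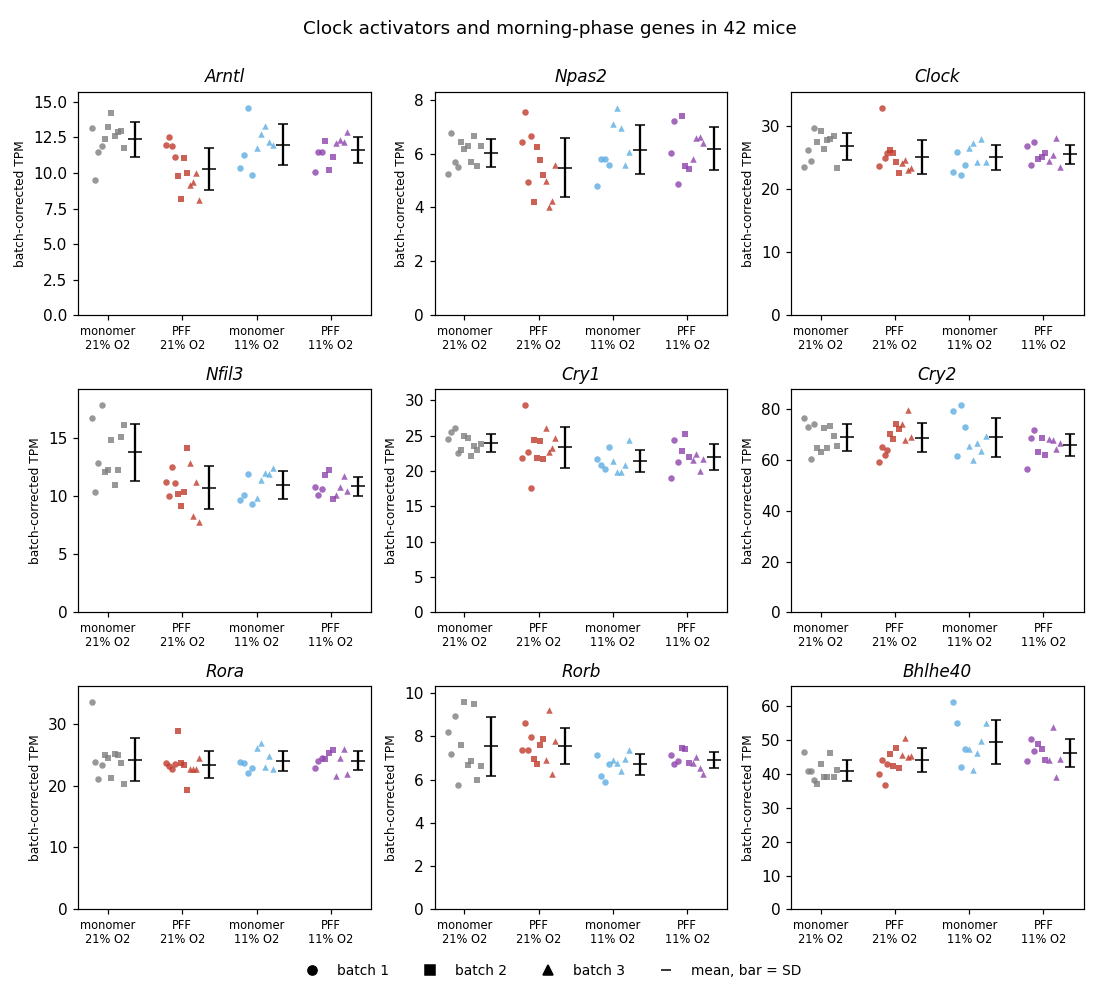
Batch-corrected TPM (y axis, linear, from 0) of each of the 9 genes in the 42 mice by group (x axis), with the symbol giving the harvest batch and the bar the mean ± SD. In the Arntl panel all 12 PFF mice at 21% O2 lie below the median of the monomer mice at 21% O2, and in the Nfil3 panel the monomer mice at 21% O2 reach 17.8 TPM while the other groups reach 14.1 TPM at most.

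The first comparison asked whether PFFs changed these genes in mice breathing 21% O2. Arntl and Nfil3 were lower with PFF and the other 7 members were not called. A gene was called at a Benjamini-Hochberg adjusted p below 0.05 and an absolute log2 fold change above 0.25 in edgeR's quasi-likelihood test on all genes. By this rule 2 of 9 members were called, against 3.7% of all genes tested, and both were lower, against 1.41% called lower. DESeq2 and limma also called 2.

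Arntl ranged from 9.50 to 14.2 TPM in the 11 monomer mice (median 12.6) and from 8.10 to 12.5 TPM in the 12 PFF mice (median 10.005). All 12 PFF mice were below the monomer median and 4 were below the lowest monomer mouse, although the groups overlapped. Of these 4, replicates 9, 10 and 12 were from batch 3, which had no monomer mice at 21% O2. The lowest monomer mouse was from batch 1, so this separation compares batches through the correction. The means were 12.4 ± 1.23 and 10.3 ± 1.46 TPM (SD), which edgeR estimated as -0.25 on the log2 scale (SE 0.0659, adjusted p = 0.0126). The size stood just past the threshold, and in 10 of 42 fits with 1 mouse left out it fell short of it, down to -0.23 without PFF replicate 6, while the adjusted p stayed between 0.00361 and 0.0312 in all 42.

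Nfil3 ranged from 10.3 to 17.8 TPM in the monomer mice (median 12.9) and from 7.76 to 14.1 TPM in the PFF mice (median 10.7). Of the 12 PFF mice, 6 were below every monomer mouse and 10 were below the monomer median. Replicates 10 and 12 of these 6 were from batch 3, which had no monomer mice at 21% O2. The means were 13.8 ± 2.48 and 10.7 ± 1.86 TPM, estimated as -0.34 on the log2 scale (SE 0.0880, adjusted p = 0.0122). The call held in all 42 fits that left out a mouse.

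Among the partners of BMAL1, Npas2 averaged 6.02 ± 0.513 TPM with monomer and 5.48 ± 1.09 TPM with PFF (log2 fold change -0.12, SE 0.0896, adjusted p = 0.437), and Clock 26.8 ± 2.20 and 25.1 ± 2.68 TPM (-0.08, SE 0.0473, adjusted p = 0.338). The PFF mice varied more in Npas2 than the monomer mice, with 6 below the lowest and 1 above the highest of them. Bhlhe40 gave a log2 fold change of 0.12 (adjusted p = 0.188). Cry1, Cry2, Rora and Rorb gave values between -0.03 and 0.02, with adjusted p of 0.798 or more.

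**Figure D2:**
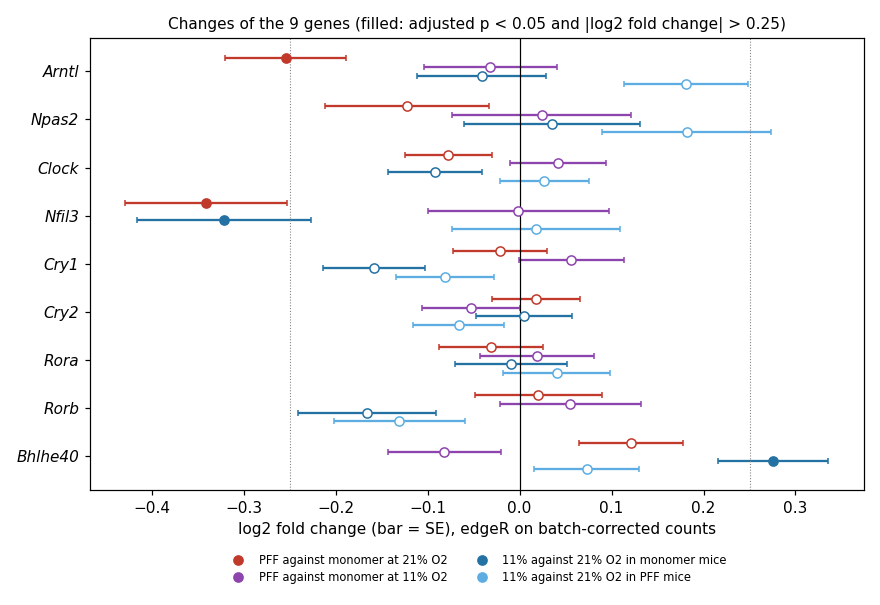
Log2 fold change (x axis, points, with SE as bars) of each gene (y axis) in 4 comparisons of the batch-corrected counts, with filled points where the gene was called and dotted lines at the fold change threshold. Filled points stand at Arntl (-0.25) and Nfil3 (-0.34) for PFF at 21% O2, and at Nfil3 (-0.32) and Bhlhe40 (0.28) for 11% O2 in monomer mice.

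The harvest batches gave different values for Arntl. Before batch correction, the 4 monomer mice of batch 1 at 21% O2 held 8.02, 9.40, 9.64 and 10.6 TPM, and the 4 PFF mice 8.94, 9.47, 9.50 and 9.80 TPM. The groups of batch 1 lay on top of each other (log2 fold change 0.03, SE 0.0952, adjusted p = 0.907). In batch 2 the 7 monomer mice held 11.5 to 14.0 TPM (median 12.6) and the 4 PFF mice 7.91, 9.53, 9.71 and 10.8 TPM, so that every PFF mouse was below every monomer mouse (log2 fold change -0.40, SE 0.0800, adjusted p = 0.00870). Within batch 1, 0 of 9 members were called by edgeR, against 0.0609% of all genes, with 1 of 9 (Nfil3) at an unadjusted p below 0.05. Within batch 2, 1 of 9 was called, Arntl, against 3.91% of all genes.

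The test of the difference itself, the PFF response of batch 2 minus that of batch 1, gave -0.43 for Arntl (SE 0.116, unadjusted p = 0.00148, rank 223 of 14809 genes, adjusted p = 0.0984), which missed the threshold. No member was called in this test (0 of 9, against 0.432% of all genes). Arntl and Cry2 were at an unadjusted p below 0.05, as were 2203 of all 14809 genes, and DESeq2 called 0 members. Nfil3 showed no such split, with -0.34 (SE 0.155) in batch 1 and -0.29 (SE 0.138) in batch 2, neither called within its batch of few mice (adjusted p = 0.379 and 0.248), and a difference of 0.05 (SE 0.230, adjusted p = 0.938). In batch 1 the Nfil3 levels of the monomer mice were 9.30, 11.6, 15.3 and 16.1 TPM and those of the PFF mice 8.92, 10.1, 10.1 and 11.4 TPM. One monomer mouse of batch 1 was within the range of its PFF mice.

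**Figure D3:**
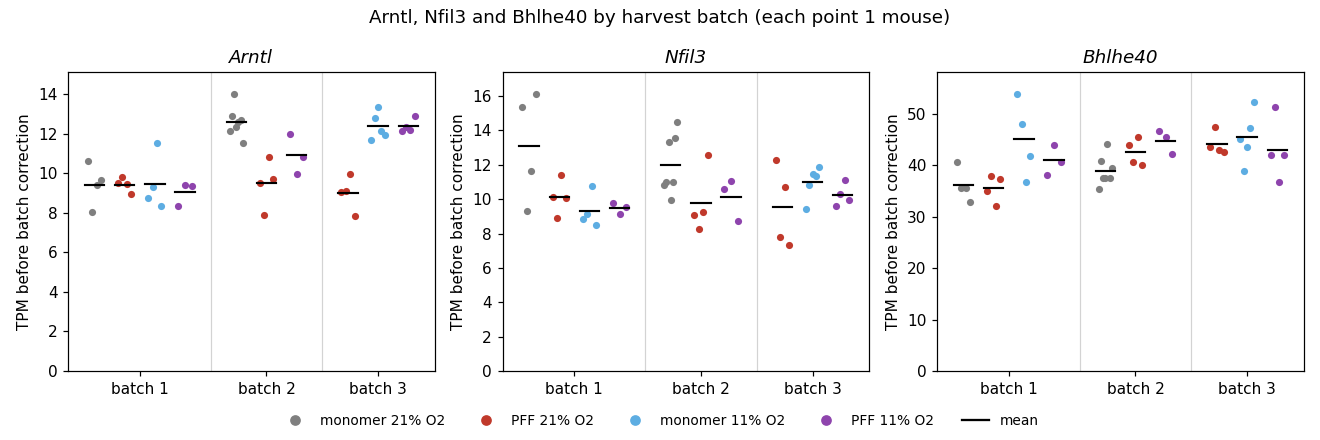
TPM before batch correction (y axis, linear, from 0) of Arntl, Nfil3 and Bhlhe40 in each of the 42 mice (points) by harvest batch (x axis) and group (colour), with the mean as a line. For Arntl all groups of batch 1 lie between 8.02 and 11.5 TPM. At 21% O2 in batch 2, PFF mice lie between 7.91 and 10.8 TPM and monomer mice between 11.5 and 14.0 TPM. In batch 3 the PFF mice at 21% O2 lie between 7.84 and 9.97 TPM. The monomer mice of batch 3, all at 11% O2, lie between 11.7 and 13.4 TPM. The PFF mice at 11% O2 lie between 9.96 and 12.0 TPM in batch 2 and between 12.1 and 12.9 TPM in batch 3.

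Of the 10 clock repressors and D-box outputs listed beside the members, 3 were called in the test of the PFF response between batches, Dbp, Ciart and Nr1d1, the last of them named after its values were seen, against 0.432% of all genes. The other 7, among them Tef and Hlf, were not called. Dbp, a D-box activator, held 53.5 to 66.9 TPM in monomer and 46.6 to 59.5 TPM in PFF mice of batch 1, but 32.9 to 43.5 TPM in monomer and 65.6 to 67.9 TPM in PFF mice of batch 2. Its PFF response differed between the batches by 1.07 (SE 0.125, adjusted p = 0.000611), rank 1 of 14809 genes. Ciart, a repressor of the activator pair, differed by 0.68 (SE 0.117, adjusted p = 0.0170). Nr1d1 differed by 0.72 (SE 0.126, adjusted p = 0.0170). The sign of these 3 differences was opposite to that of Arntl, whose own difference was not called.

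In PFF mice at 21% O2 the 3 batches of 4 mice were close in Arntl, at 9.43 ± 0.358, 9.49 ± 1.20 and 8.99 ± 0.875 TPM before correction (adjusted p = 0.795 for a difference among batches). No member was called in that test by edgeR (0 of 9, against 0.904% of all genes). Clock (adjusted p = 0.0641), Bhlhe40 (0.0657) and Cry2 (0.0989) were at an unadjusted p below 0.05, as were 3350 of all 14706 genes. DESeq2's likelihood ratio test called the same 3, at adjusted p of 0.00489, 0.00748 and 0.0377, in a test in which it called 1244 genes over the whole table against 133 by edgeR. Among these mice Clock averaged 25.2 ± 2.42 TPM in batch 1, 22.4 ± 1.64 in batch 2 and 20.7 ± 0.640 in batch 3. Bhlhe40 averaged 35.5 ± 2.68, 42.5 ± 2.59 and 44.2 ± 2.28 TPM in the same order.

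The second question was what 11% O2 did in monomer mice, which share the 21% O2 monomer mice with the first comparison. Nfil3 was again lower and Bhlhe40 was higher, so 2 of 9 members were called, against 7.23% of all genes. One of 9 was called higher, against 4.68% of all genes, and 1 of 9 lower, against 2.55%. DESeq2 and limma also called 2.

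Nfil3 ranged from 9.29 to 12.5 TPM in the 9 monomer mice at 11% O2 (median 11.4), and all 9 were below the median of 12.9 TPM of the monomer mice at 21% O2. The estimated change was -0.32 on the log2 scale (SE 0.0949, adjusted p = 0.0187). On counts before correction with batch as a covariate the size was the same, -0.32, and the call was lost (adjusted p = 0.0828). Nfil3 was thus highest in the monomer mice at 21% O2, at 13.8 ± 2.48 TPM, and the other 3 groups, at 10.7 ± 1.86 (PFF, 21%), 11.0 ± 1.20 (monomer, 11%) and 10.8 ± 0.840 TPM (PFF, 11%), lay within their spread of each other.

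Bhlhe40, a repressor that binds E-boxes and is also a known target of hypoxia-inducible factor, ranged from 37.0 to 46.6 TPM in the monomer mice at 21% O2 (median 40.9) and from 41.2 to 61.2 TPM at 11% O2 (median 47.5). All 9 hypoxic mice were above the 21% O2 median and 6 of 9 were above the highest 21% O2 mouse. The means were 41.05 ± 3.15 and 49.5 ± 6.52 TPM, estimated as 0.28 on the log2 scale (SE 0.0600, adjusted p = 0.00151). Without monomer replicate 1 at 11% O2 the value was 0.24 (adjusted p = 0.00687), below the size threshold.

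Cry1 was lower at 11% O2 by a margin that just missed the threshold, with 19.8 to 24.4 TPM at 11% O2 (median 20.8) against 22.1 to 26.1 TPM at 21% O2 (median 23.8). Of the 9 hypoxic mice, 7 were below every normoxic mouse (log2 fold change -0.16, SE 0.0557, adjusted p = 0.0502). In 9 of the 42 fits with a mouse left out its adjusted p was below 0.05, with a size that stayed under the threshold. Replicate 11, the only mouse harvested at 98 days, was the highest of the 9 hypoxic mice. The edgeR fit without it gave Cry1 -0.18 (adjusted p = 0.029). Rorb gave -0.17 (SE 0.0749, adjusted p = 0.137) and Clock -0.09 (SE 0.0509, adjusted p = 0.237). Arntl stood at 12.0 ± 1.44 TPM at 11% O2 (log2 fold change -0.04, SE 0.0704, adjusted p = 0.757), and Npas2, Cry2 and Rora gave values between -0.01 and 0.04.

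Only batch 1 held monomer mice at both oxygen levels. There Nfil3 was 8.47, 8.87, 9.16 and 10.8 TPM at 11% O2 against 9.30 to 16.1 TPM at 21% O2 (log2 fold change -0.49, SE 0.156, adjusted p = 0.103). Bhlhe40 was 36.8, 41.8, 47.9 and 53.8 TPM against 32.8, 35.5, 35.6 and 40.7 TPM (0.32, SE 0.103, adjusted p = 0.108). With 4 mice a group, 0 of 9 members were called by edgeR, against 2.01% of all genes, and these 2 were at an unadjusted p below 0.05. Both values were as large as over all batches, and in the rest of the monomer mice the oxygen level and the batch cannot be told apart except through the correction.

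Beside the change of Bhlhe40, all 5 endothelial markers were called higher at 11% O2 in monomer mice, with sums of 154 to 292 TPM against 103 to 165.5 TPM, as were 2 of 6 oligodendrocyte markers and 1 of 4 hippocampus and cortex markers. The share called over all genes was 7.23%. None of the 53 marker genes was called for PFF at 21% O2, where the share over all genes was 3.7%. The part of the marker genes in the result was not tested.

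In mice breathing 11% O2 the PFF and monomer groups did not separate in any member. Neither edgeR, DESeq2 nor limma called a member, 0 of 9 against 0% of all genes in edgeR, and 0 of 9 were at an unadjusted p below 0.05. Over all genes 581 were at an unadjusted p below 0.05, DESeq2 called 1 and limma 0. The log2 fold changes of the members lay between -0.08 (Bhlhe40, SE 0.0613) and 0.06 (Cry1, SE 0.0571). Arntl was 11.6 ± 0.923 TPM with PFF and 12.0 ± 1.44 TPM with monomer (-0.03, SE 0.0722), and Nfil3 gave -0.0013 (SE 0.0980).

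The PFF mice at 21% O2 of the first comparison were also the reference for 11% O2 in PFF mice. There, 11% against 21% O2 called 0 of 9 members in edgeR, DESeq2 and limma, against 0.58% of all genes in edgeR. Arntl alone of the members was at an unadjusted p below 0.05, against 1588 of all 14839 genes. Arntl was 10.1 to 12.9 TPM at 11% O2 (median 11.8), with all 10 mice above the 21% O2 median of 10.005 TPM (log2 fold change 0.18, SE 0.0677, adjusted p = 0.284). Npas2 gave 0.18 (SE 0.0917, adjusted p = 0.478), Rorb -0.13 (SE 0.0713) and Cry1 -0.08 (SE 0.0531). Bhlhe40, called higher at 11% O2 in monomer mice, gave 0.07 here (SE 0.0573, adjusted p = 0.692), with means of 44.1 ± 3.57 and 46.3 ± 4.16 TPM.

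By batch, the oxygen response of Arntl in PFF mice was -0.08 (SE 0.103) in batch 1, 0.23 (SE 0.0974) in batch 2 and 0.45 (SE 0.0780) in batch 3. In batch 3 the 4 PFF mice at 11% O2 held 12.1, 12.2, 12.3 and 12.9 TPM and the 4 at 21% O2 held 7.84, 9.05, 9.09 and 9.97 TPM, with no overlap (adjusted p = 0.0843). Npas2 gave -0.07 (SE 0.156), 0.22 (SE 0.140) and 0.43 (SE 0.137) and was called in no batch, although in batch 3 its groups did not overlap, at 5.34 to 6.06 against 3.57 to 5.08 TPM. In batch 1 the groups of 3 and 4 mice did not overlap for Rorb (6.44 to 6.82 against 7.06 to 8.15 TPM) or for Bhlhe40 (38.1 to 44.0 against 32.02 to 37.8 TPM), and neither was called there. The share of all genes without overlap in groups this small was not counted, so these cases cannot be set against a background. Dbp gave values of the other sign, 0.37 (SE 0.166), -0.26 (SE 0.135) and -0.65 (SE 0.184).

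The test of a difference among the 3 batches gave Arntl an unadjusted p of 0.00138, rank 16 of 14964 genes, and an adjusted p of 0.862. No member passed (0 of 9, against 0% of all genes), Arntl alone was at an unadjusted p below 0.05, and DESeq2 called 0 members. Dbp was rank 1 in this test, also with an adjusted p of 0.862. Over all genes 824 were at an unadjusted p below 0.05.

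**Figure D4:**
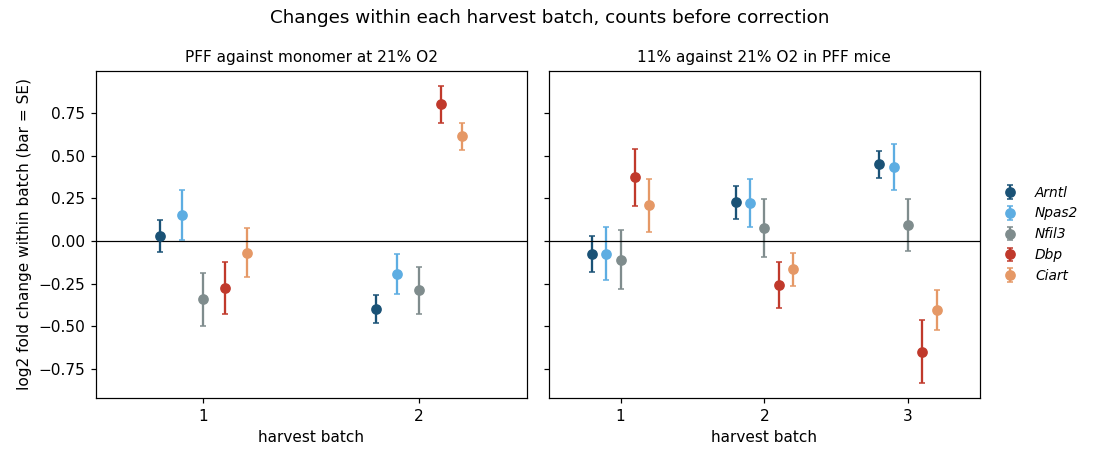
Log2 fold change within each harvest batch (y axis, points, with SE as bars) of Arntl, Npas2, Nfil3, Dbp and Ciart on counts before correction, for PFF at 21% O2 (left, batches 1 and 2) and for 11% O2 in PFF mice (right, batches 1 to 3). Arntl stands at 0.03 and -0.40 on the left and at -0.08, 0.23 and 0.45 on the right, and Dbp lies on the other side of 0 from Arntl in each batch shown, at -0.28 and 0.80 on the left and at 0.37, -0.26 and -0.65 on the right.

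Whether oxygen changed the PFF response was tested as the interaction of injection and O2. No member was called (0 of 9 in edgeR, DESeq2 and limma, against 2.14% of all genes in edgeR). At an unadjusted p below 0.05 were 3 of the 9, Nfil3 at 0.34 (SE 0.132, adjusted p = 0.177), Arntl at 0.22 (SE 0.0977, adjusted p = 0.247) and Bhlhe40 at -0.20 (SE 0.0831, adjusted p = 0.207). Over all 14839 genes, 2279 were at an unadjusted p below 0.05. The lower Arntl and Nfil3 seen with PFF at 21% O2 and not called at 11% O2 were therefore not shown to differ between the oxygen levels.

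The rest of the clock was described with lists chosen with earlier results of these data known. Of 10 repressors and D-box outputs, 4 were called for PFF at 21% O2, against 3.7% of all genes. Dbp (0.61, SE 0.132, adjusted p = 0.00314), Ciart (0.45, SE 0.0871, adjusted p = 0.000887) and Per3 (0.26, SE 0.0699, adjusted p = 0.0169), a period gene, were higher, and Per1 (-0.33, SE 0.0907, adjusted p = 0.0209), a period gene that also answers to stress and activity, was lower. The median over the 10 was 0.06, against 0.00085 over all genes and -0.03 over the 9 members. In monomer mice at 11% O2, 2 of 10 were called, Per1 (-0.48, SE 0.0987) and Per2 (-0.47, SE 0.0822), both lower, against 7.23% of all genes. In PFF mice at 11% against 21% O2, 1 of 10 was called, Per3 (-0.37, SE 0.0721, adjusted p = 0.00304), against 0.58% of all genes. None was called for PFF at 11% O2 or for the interaction by edgeR.

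Of 16 modifiers of clock proteins, 1 was called for PFF at 21% O2, Tipin (0.32, SE 0.0761, adjusted p = 0.00746), a replication fork protein that pairs with TIMELESS. With 3.7% of all genes called, 1 of 16 is near the background. In monomer mice at 11% O2, Tipin (0.34, SE 0.0813) and Timeless (0.34, SE 0.0985) were called higher, 2 of 16 against 7.23% of all genes, and Tipin was called for the interaction (-0.41, SE 0.112, adjusted p = 0.0383), 1 of 16 against 2.14%.

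Lists outside the clock were read against the same shares, 3.7% of all genes for PFF at 21% O2 and 7.23% for 11% O2 in monomer mice. For PFF at 21% O2, 7 of 9 temperature-responsive genes were called, 2 higher and 5 lower, among them Dnajb1 lower and Cirbp higher. Of 8 glucocorticoid targets 5 were called, 4 of them lower, as was 1 of 8 immediate early genes, lower, and 0 of 7 targets of hypoxia-inducible factor. In monomer mice at 11% O2 the counts were 6 of 9 (1 higher, 5 lower), 5 of 8 (all lower), 2 of 8 (both lower) and 7 of 7 (all higher). The targets of hypoxia-inducible factor were named by the study as higher at 11% O2 in these data. The summed level of the temperature-responsive list was 3181 to 4486 TPM in the monomer mice at 21% O2 and 2896 to 3744 TPM in the other 3 groups. Their part in the changes of Nfil3, Arntl and Bhlhe40 was not tested.

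Mouse-to-mouse variation was described on log2 CPM (counts scaled to library size) before correction, after subtracting the mean of each group within its batch, over 42 mice and with no test. These values share library depth and dissection between genes. Among the members, Rorb and Bhlhe40 went together most (Pearson r = 0.53, Spearman rho = 0.57), followed by Arntl and Nfil3 (r = 0.45, rho = 0.37). Without the 2 mice farthest from the median of the first gene, r was 0.51 and 0.39. Within batches 1, 2 and 3, r for Arntl and Nfil3 was 0.66, 0.22 and 0.49 over 15, 14 and 13 mice. Clock and Cry2 went in opposite directions most (r = -0.48, rho = -0.54). The value for Arntl and its partner genes changed sign between settings, which differed in the counts, the mean subtracted or the mice. It was -0.06 with Npas2 and -0.25 with Clock on counts before correction, and 0.31 and 0.12 on batch-corrected counts minus the group mean. Over all 48 mice before correction it was 0.24 and -0.37.

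Across 14838 other genes, the 5 most like Arntl were Poldip3 (r = 0.64), Jakmip3 (0.62), Mettl16 (0.58), 9030624G23Rik (0.58) and Atp8a1 (0.57), and the 5 most opposite were Tmem165 (-0.63), Xndc1 (-0.62), Zfp991 (-0.60), Manea (-0.59) and Gm38393 (-0.59). The order of such genes depended on the counts used and the mean subtracted. Of the 5 highest and the 5 lowest, 1 and 1 kept that place on batch-corrected counts minus the group mean. There Ciart (r = -0.75) and Dbp (r = -0.73) were the 2 genes most opposite to Arntl. Differences left between batches of a group enter these values. Of the 10 clock repressors and D-box outputs, all 10 had a negative r before correction in the 42 mice, from -0.02 (Bhlhe41) to -0.54 (Dbp). Bhlhe41 stood at rank 8059 of 14838 from the highest r, and the share of all genes with a negative r was not counted. Per1 stood at -0.06, Nr1d1 at -0.19, Hlf at -0.22, Per2 at -0.28 and Tef at -0.30. The 4 most negative were named after their values were seen. Dbp (r = -0.54, rho = -0.52), Nr1d2 (r = -0.54, rho = -0.47), Ciart (r = -0.52, rho = -0.55) and Per3 (r = -0.46, rho = -0.41) stood at ranks 14816, 14812, 14796 and 14685 of 14838 from the highest r. Without the 2 mice farthest from the median of Arntl, these 4 values of r were -0.50, -0.44, -0.46 and -0.40. Nfil3 stood at rank 142 of 14838. Over all 48 mice before correction, r was 0.08 for Bhlhe41 and 0.00071 for Hlf, and negative for the rest of the 10.

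**Figure D5:**
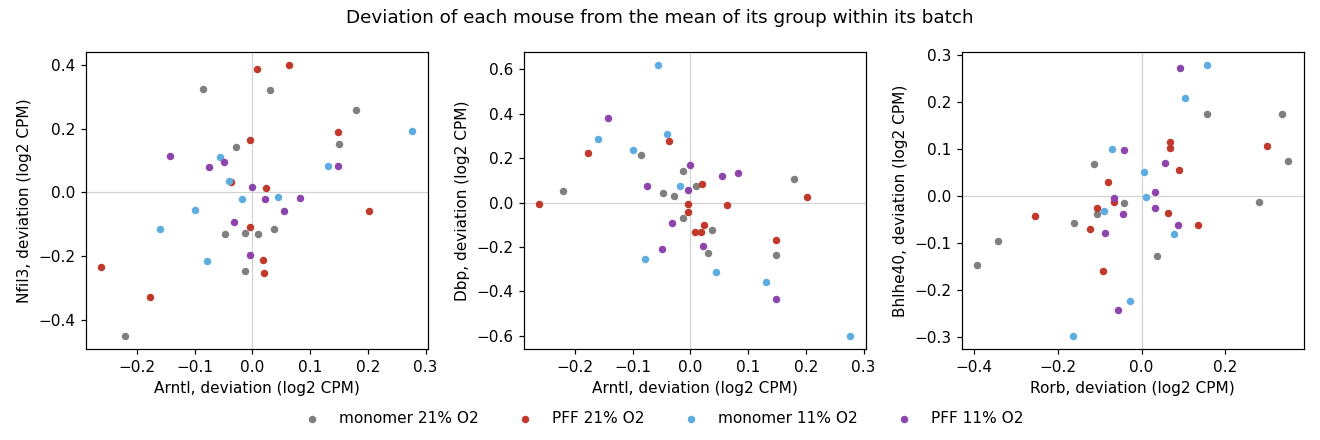
Deviation of each of the 42 mice (points, coloured by group) from the mean of its group within its batch, in log2 CPM before correction, for Nfil3 against Arntl, Dbp against Arntl and Bhlhe40 against Rorb (axes). Pearson r is 0.45, -0.54 and 0.53.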

How the data were processed

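Substantia nigra RNA was sequenced as paired-end poly(A) libraries by the authors, who removed reads of ribosomal DNA, aligned the rest to mm10 with STAR 2.7.5a (GENCODE vM24 annotation), removed duplicates with Picard 2.21.9 and counted fragments per gene with featureCounts 2.0.1 with the primary alignment of multi-mapped reads and no strand setting (tools and versions per the submitters' processing notes and the study's methods). They deposited counts and TPM for 48 mice, and for 42 of them counts and TPM corrected for harvest batch with ComBat-seq, with O2 and injection as covariates. The correction changes the values of each batch, which is why deposited counts before correction were used within batches. It did not bring batches closer in every group. In normoxic PFF mice it moved Arntl of batch 1 above the other batches.

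The corrected counts were fitted here with edgeR 4.0.16 (TMM, filterByExpr by group, quasi-likelihood test, R 4.3.3), all 4 groups in 1 fit, and adjusted over all 14839 genes by the Benjamini-Hochberg method. The calling limits, an adjusted p below 0.05 and a log2 fold change beyond 0.25 either way, are those of the study's methods. SEs were taken from the fold change and its F statistic. Differences between batches were tested as interactions on counts before correction. DESeq2 1.42.0, limma 3.58.1 on log2(TPM + 1), other filters and scalings, and subsets of mice were alternatives, and each mouse was left out in turn after the data had been seen. The fitting code was tested on simulated data. Mice were grouped by their labels, and no 2 libraries were alike, with at least 27083 genes differing in count between any 2.

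The members and all gene lists were chosen with earlier results of these data known. All 9 members are named, list genes of the clock where called in 1 of the 5 comparisons, and the 5 genes with the highest and the 5 with the lowest r to Arntl. P-values measure the spread between mice. Those of the main fit rest on corrected counts with no batch term, so the uncertainty of the correction is not in them. The result of 1 short gene list is not reported here.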

Additional observations from a re-analysis of the deposited data

Results flagged for a closer look

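The 6 mice that the authors set aside entered none of the comparisons above, and their TPM before batch correction stood above the highest of the monomer mice at 21% O2 for 3 of the 9 genes. Npas2 reached 13.3 TPM in PFF replicate 2 at 11% O2, on 66 counts in the shallowest library, and 7.21 TPM in monomer replicate 12 at 11% O2, against 6.94 TPM. Rorb reached 8.90 TPM in PFF replicate 2 at 11% O2, against 8.58 TPM. Bhlhe40 reached 61.2 TPM in PFF replicate 5, 54.5 TPM in monomer replicate 9 and 47.4 TPM in monomer replicate 12, all at 11% O2, against 44.2 TPM. Npas2 at 13.3 TPM, Rorb at 8.90 TPM and Bhlhe40 at 61.2 and 54.5 TPM were also above all 42 mice. Npas2 at 7.21 TPM and Bhlhe40 at 47.4 TPM were within the range of the 42, which reached 7.71 and 53.8 TPM. On the low side, Cry2 stood below all 42 mice (lowest 54.2 TPM) in 3 of the 6, at 51.4 TPM in PFF replicate 2 and 52.4 TPM in monomer replicate 8 at 11% O2 and at 51.2 TPM in monomer replicate 10 at 21% O2. Clock was 16.3 TPM in PFF replicate 2 at 11% O2, below the lowest of the 42 (20.1 TPM). Within the 42 mice, none of the 18 groups of members small enough for Dixon's test held a mouse past its critical value. These were all groups at 11% O2, so no mouse at 21% O2 was tested. The highest batch-corrected values of Rora (33.5 TPM, monomer replicate 1) and Clock (32.8 TPM, PFF replicate 2) were among the untested mice.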

How the results depend on the processing

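With PFF at 21% O2 the 2 calls (Arntl and Nfil3) were made in 13 of 15 other settings. Batch 1 alone gave 0 calls and batch 2 alone gave 1. For 11% O2 in monomer mice 2 were called in 12 of 14 settings, 1 on counts before correction with batch as a covariate in 42 mice (Nfil3 -0.32, adjusted p = 0.0828) and 0 in batch 1 alone. DESeq2 called 3 for batches within PFF mice at 21% O2, among 1244 genes that it called over the whole table. Leaving out each of the 42 mice in turn, chosen after seeing the data, gave 1 to 2 calls in both of the first comparisons and 0 in the others. The Arntl call was lost by size without monomer replicates 1, 6, 7, 8 or 11 or PFF replicates 5, 6, 9, 10 or 12 at 21% O2.

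Of 693 values of single genes, 646 kept their direction and side of the threshold, 5 lost their call and 42 changed sign, all but 1 of these without a call in either fit. The exception was Arntl for PFF at 21% O2 in batch 1 alone. The cause was not tested.

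The values of other sign were as follows, as log2 fold changes. Counts before correction, no batch term, 42 mice gave Cry1 0.00531 for PFF against monomer at 21% O2 and Npas2 -0.0926 and Cry2 -0.00946 for 11% against 21% O2 in monomer mice. Batch 1 alone gave Arntl 0.0281, Npas2 0.151, Clock 0.0257 and Cry2 -0.0943 for PFF against monomer at 21% O2, Nfil3 0.0389 for PFF against monomer at 11% O2, Arntl 0.00692 and Npas2 -0.0622 for 11% against 21% O2 in monomer mice, Arntl -0.0764, Npas2 -0.0736, Clock -0.0242, Nfil3 -0.109 and Cry2 0.0129 for 11% against 21% O2 in PFF mice and Arntl -0.0833 and Npas2 -0.0114 for interaction of injection and O2. Batch 2 alone gave Rora 0.0224 and Rorb -0.0379 for PFF against monomer at 21% O2 and Cry1 0.0455 and Rorb 0.00683 for 11% against 21% O2 in PFF mice. Limma, log2(TPM + 1), mean TPM at least 0.1 gave Cry2 -0.00121 for PFF against monomer at 21% O2 and Cry2 -0.00266 for 11% against 21% O2 in monomer mice. Limma, log2(TPM + 0.1), mean TPM at least 0.1 gave Cry2 -0.00123 for PFF against monomer at 21% O2 and Cry2 -0.00273 for 11% against 21% O2 in monomer mice. Limma, log2(TPM + 1), mean TPM at least 1 gave Cry2 -0.00121 for PFF against monomer at 21% O2 and Cry2 -0.00266 for 11% against 21% O2 in monomer mice. Counts before correction, batch as covariate, 48 mice gave Clock -0.000938, Nfil3 0.00657 and Cry2 0.0145 for PFF against monomer at 11% O2 and Cry2 -0.0270 for 11% against 21% O2 in monomer mice. Batch 3 alone gave Arntl 0.0128, Npas2 -0.0714, Clock -0.0503, Cry2 0.0752, Rora -0.0608 and Rorb -0.0391 for PFF against monomer at 11% O2 and Bhlhe40 -0.0530 for 11% against 21% O2 in PFF mice. The fit without monomer replicate 11 at 11% O2 gave Nfil3 0.0226 for PFF against monomer at 11% O2 and Rora 0.00165 for 11% against 21% O2 in monomer mice. Counts before correction, batch as covariate, 42 mice gave Cry2 -0.0134 for 11% against 21% O2 in monomer mice. The replicate block gave Nfil3 -0.0137 for 11% against 21% O2 in PFF mice.

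The replicate block gave 2 calls for PFF at 21% O2, 2 for 11% O2 in monomer mice and 0 elsewhere. Same-numbered mice did not vary together (54 pairs, r from -0.392 to 0.546, 21 above 0.1), so the numbers were not taken as pairs. Subsets of 3 or 4 mice a group limit what a single batch can show.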
